A study of Homo sapiens with 3 samples.

Results

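SIRT1 peaks at gene ends, outside the called peaks of an acetylated histone, were examined in THP1, a human monocytic leukaemia line. Unacetylated here means without a called peak of that histone mark, which does not show that acetylation was absent. A peak of the SIRT1 list was taken when its summit lay no more than 1 kb from the first or last base of a protein-coding gene's record on hg38 and the peak shared no base with a peak of the H3K27ac list, on chromosomes 1 to 22 and X. That gave 1813 peaks of the 96805 in the SIRT1 list, or 1.90% of the 95225 on those chromosomes, at the ends of 1814 of 19974 genes. A further 47 SIRT1 peaks at gene ends shared a base with an H3K27ac peak, and 92701 lay away from both gene ends and H3K27ac peaks. The study mapped chromatin by immunoprecipitation and sequencing (ChIP-seq) in wild-type cells treated with PMA for 24 h, a phorbol ester that drives THP1 cells towards a macrophage-like state. It held 1 library made with an antibody to SIRT1, 1 made with an antibody to acetylated lysine 27 of histone H3 (H3K27ac), and 1 input library made with no antibody. The peak lists of both antibodies were used here and the input was not. Since each antibody had a single library, nothing was replicated and no p-value is given. Every interval below on a share or a density is a 95% exact binomial or Poisson interval that covers counting error only. An interval on a median is a 95% interval taken from the ranked values. In such a list, a weaker signal in every cell and a signal in fewer cells cannot be told apart.

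SIRT1 is an NAD-dependent deacetylase that removes acetyl groups from histones and from other proteins, transcription factors among them, and it is known as a brake on inflammatory gene expression in macrophages. H3K27ac marks active promoters and enhancers, and a gene end without it is often the start of a silent gene or the stop of a gene of either kind. Transcription begins at the start of a gene, where acetylation concentrates, and finishes at the stop. Of 9 monocyte and macrophage marker genes, 8 carried H3K27ac at a gene end, and LYZ had no H3K27ac peak there. The fold of the H3K27ac peak was 109 at SPI1, 98.8 at FCER1G and 68.3 at CSF1R. The mark was common at gene ends: of 19974 protein-coding genes 8629 lacked it at both ends, and 19 of 20 oxidative phosphorylation genes carried it. The marker count therefore does not identify the cell type. The 9 genes had 4 unacetylated ends in all and no SIRT1 peak at them, which at the 6.76% of all unacetylated ends says nothing about these genes. The SIRT1 gene, with 1 unacetylated end, had none either, and its H3K27ac peak had a fold of 50.9.

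The promoters shown here are those that lay wholly inside one of the 1813 peaks and whose peak rested on 4 or more fragments at the summit. They are 5 of the 14 promoters that a peak covered in full, and only the number of fragments sets them apart from the rest. Each runs 5′ to 3′ on the gene's own strand, from 250 bases before the start to 50 after it, from RefSeq on GRCh38.p14. Capitals mark matches, on either strand, to the motifs that were searched, and a match is a run of letters only. PPP1R14D, a gene for an inhibitory subunit of protein phosphatase 1, lies at chr15:40828659-40828958 on the minus strand. PCDHB16, a clustered protocadherin of neuronal adhesion, lies at chr5:141182137-141182436 on the plus strand. ASB18, a gene of the ankyrin repeat and SOCS box family, lies at chr2:236264357-236264656 on the minus strand. CXorf51B lies at chrX:146809521-146809820 on the plus strand. SIGLEC11, a sialic acid-binding receptor of myeloid cells, lies at chr19:49961123-49961422 on the minus strand.
PPP1R14D: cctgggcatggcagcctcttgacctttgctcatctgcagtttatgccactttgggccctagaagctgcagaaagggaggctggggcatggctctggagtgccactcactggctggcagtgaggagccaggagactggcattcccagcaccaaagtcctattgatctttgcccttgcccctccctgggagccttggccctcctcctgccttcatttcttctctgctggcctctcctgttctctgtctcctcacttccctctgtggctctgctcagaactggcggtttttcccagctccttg
PCDHB16: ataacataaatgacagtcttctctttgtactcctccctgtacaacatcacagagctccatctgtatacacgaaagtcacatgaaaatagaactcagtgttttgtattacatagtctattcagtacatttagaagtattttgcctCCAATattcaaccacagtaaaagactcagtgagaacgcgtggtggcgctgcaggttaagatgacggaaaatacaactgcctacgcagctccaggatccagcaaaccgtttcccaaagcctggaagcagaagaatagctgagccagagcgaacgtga
ASB18: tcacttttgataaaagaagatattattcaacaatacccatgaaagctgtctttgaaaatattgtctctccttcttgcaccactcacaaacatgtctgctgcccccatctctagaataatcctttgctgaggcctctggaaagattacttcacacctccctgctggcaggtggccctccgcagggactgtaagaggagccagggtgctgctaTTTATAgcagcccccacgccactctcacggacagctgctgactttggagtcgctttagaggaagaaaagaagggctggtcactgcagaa
CXorf51B: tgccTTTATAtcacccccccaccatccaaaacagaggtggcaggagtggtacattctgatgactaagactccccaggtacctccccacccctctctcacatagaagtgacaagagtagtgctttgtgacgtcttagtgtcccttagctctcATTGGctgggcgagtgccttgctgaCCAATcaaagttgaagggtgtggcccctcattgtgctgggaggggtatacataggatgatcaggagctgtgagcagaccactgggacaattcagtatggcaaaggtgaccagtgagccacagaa
SIGLEC11: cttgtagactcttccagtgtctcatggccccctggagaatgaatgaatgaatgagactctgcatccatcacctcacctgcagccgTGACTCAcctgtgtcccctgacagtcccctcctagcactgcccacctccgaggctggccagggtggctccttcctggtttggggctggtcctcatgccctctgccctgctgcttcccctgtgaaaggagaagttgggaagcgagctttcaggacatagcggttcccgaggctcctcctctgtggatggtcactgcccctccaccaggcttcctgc

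The PPP1R14D promoter held no match to any of the 7 motifs, and its SIRT1 peak, 776 bp wide, had a fold of 4.41 on 5 fragments. The PCDHB16 promoter held 1 CCAAT box, and its peak was 755 bp wide with a fold of 4.27 on 5 fragments and a summit 2 bp from the start. The ASB18 promoter held 1 TATA box, and its peak had a fold of 3.67 on 4 fragments. The CXorf51B promoter held 1 TATA box and 2 CCAAT boxes, with a fold of 3.67 on 4 fragments. The SIGLEC11 promoter held 1 AP-1 motif, with a fold of 2.66 on 4 fragments, 66 bp from an H3K27ac peak, over a raised local background of 0.878 fragments. CXorf51B has a near-identical copy, so its value is uncertain. No motif of the 7 was found in all 5 promoters. The 14 covered promoters also included that of SLC17A6, a vesicular glutamate transporter of neurons, with a fold of 2.20 on 2 fragments, and that of DEFB118, a beta defensin, with a fold of 2.78 on 3 fragments.

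The peaks were narrow and rested on few fragments. Fold here is the authors' own value from the peak caller, fragments over the local background at the summit. The median fold was 2.78 at unacetylated gene ends, 2.78 at gene ends sharing a base with H3K27ac, and 2.79 away from both. The folds ran from 2.09 to 5.87 among the 1813 peaks, and their median width was 301 bp, with a range of 253 to 1148 bp. The median width was 301 bp at the 47 acetylated ends and 301 bp in the distal peaks. At unacetylated ends 40.04% of peaks (37.8 to 42.3) had 2 fragments at the summit and 43.7% (41.4 to 46.0) had 3. In the distal peaks 39.6% (39.3 to 39.96) had 2 fragments and 44.8% (44.4 to 45.1) had 3. The share on 4 or more fragments was 16.3% (14.6 to 18.1) at unacetylated ends, 23.4% (12.3 to 38.0) at the 47 acetylated ends and 15.6% (15.4 to 15.8) away from both. These intervals overlap, so a difference in strength between the classes was not detectable at this depth. The local background differed: it was at the lowest value of the list for 63.7% (61.4 to 65.9) of the peaks at unacetylated ends, 36.2% (22.7 to 51.5) at acetylated ends and 68.6% (68.3 to 68.9) away from both.

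**Figure D1:**
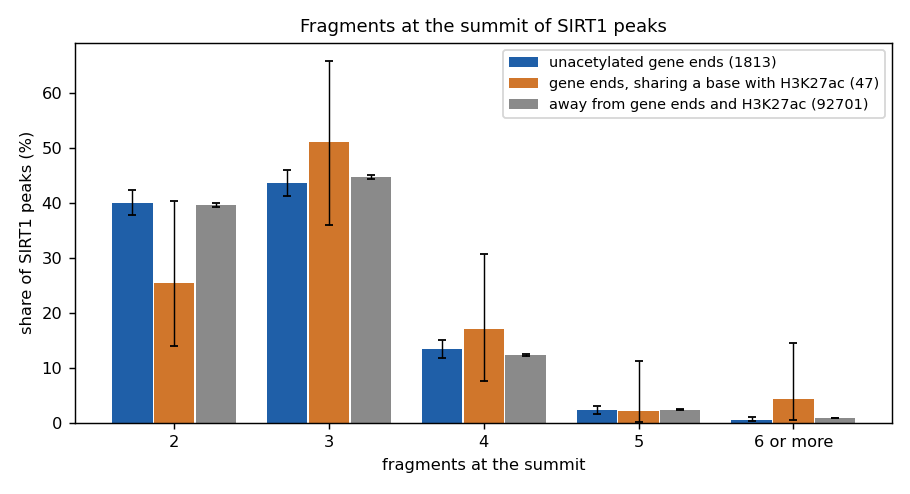
Share of SIRT1 peaks (y axis, percent) by the number of fragments at the summit (x axis) for the 1813 peaks at unacetylated gene ends, the 47 at gene ends that share a base with H3K27ac, and the 92701 away from both; bars are shares and error bars 95% exact binomial intervals. Peaks on 2 or 3 fragments made up 83.7% at unacetylated gene ends and 84.4% away from both.

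A q of at most 0.05, which is a −log10 q of at least 1.3, was reached by 2 of the 1813 peaks, or 0.110%. In the whole SIRT1 list on these chromosomes the share was 0.142%. The −log10 q was 0 for 86.0% of the 1813 peaks. A fold of at least 4 was reached by 24 peaks, or 1.32% (0.850 to 1.96), and by 1.6% of all SIRT1 peaks. The genes named below are positions of weak peaks, of which all but 2 did not pass that q.

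The strongest peak lay 270 bp beyond the stop of PRAMEF26, a gene of the PRAME family of germline and tumour antigens, at chr1:13148354-13148852. It had a fold of 5.87 on 7 fragments and a −log10 q of 2.42. The second lay 621 bp outside the record of CSH2, a placental lactogen gene, at chr17:63871251-63871603, with a fold of 5.14 on 6 fragments and a −log10 q of 1.38. These were the 2 peaks past the q. Both genes belong to clusters of near-identical copies, and how reads shared among copies were placed is not given in the sources used here. The third, at BATF3, an AP-1 family transcription factor gene, had a fold of 4.62 on 6 fragments at chr1:212686442-212686778. It lay inside the gene, 262 bp from an end, and 627 bp from an H3K27ac peak, and the other end of BATF3 was acetylated.

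The next 6 genes by fold each had a peak of fold 4.41 on 5 fragments. The peak of ADAMTSL1, a secreted matrix protein gene, lay 859 bp upstream of its start. The peak of BIRC7, an inhibitor of apoptosis, lay 558 bp inside its start, and that of RGS6, a regulator of G protein signalling, 182 bp inside its start. The PPP1R14D summit lay 162 bp inside the start. The peak of BNC2, a zinc finger transcription factor gene, lay 533 bp beyond the stop and was 996 bp wide. The peak of ODAPH, a gene of enamel formation, lay 575 bp beyond the stop and 1114 bp from an H3K27ac peak. OLFML2B, which encodes an extracellular matrix protein, followed with a fold of 4.40 on 5 fragments, 711 bp inside its stop. At the border of the rule, the SLC39A12 peak lay 1000 bp from the gene end with a fold of 2.94 on 3 fragments, and 1 of 2 peaks left out at 1001 bp, near MS4A4E, had the same 2.94 on 3 fragments.

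Most genes had a single peak: 1712 had 1, 102 had 2 or more, 6 had 3, and 90 had one at both ends. In the other direction, 93 peaks lay at the ends of 2 or more genes. RGS4, another regulator of G protein signalling, had 3 peaks with folds of 2.89, 2.93 and 2.94 on 3 fragments each, 2 around its start and 1 beyond its stop. NMNAT3, which makes NAD in mitochondria and so the substrate that sirtuins consume, had 2 at its stop, both with a fold of 2.20 on 2 fragments, and 1 inside its start with 2.88 on 3. MMP27, a matrix metalloproteinase gene, had folds of 2.94, 2.20 and 2.20. PLB1, a phospholipase gene, had 2.94, 2.78 and 2.12. RFPL4AL1 had 3.23, 2.94 and 2.12, and LOC105369591 had 3.53, 2.20 and 2.15. None of these 6 genes had a peak on more than 4 fragments.

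How often a gene end carried such a peak was compared between ends with and without H3K27ac. An end was counted as unacetylated when no H3K27ac peak reached its 1 kb window. Of 26894 unacetylated ends 6.76% (6.47 to 7.07) carried one of the 1813 peaks. Of 13054 ends with H3K27ac in the window 0.651% (0.520 to 0.805) did, a share that the rule itself lowers because peaks sharing a base with H3K27ac were left out. An H3K27ac peak thus stood in the window of 82 of the 1813 peaks, or 4.52%, although the peaks themselves shared no base with one. Per gene, 9.08% of all protein-coding genes and 9.78% of those with at least 1 unacetylated end had a peak.

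Start and stop were told apart for the 15812 genes with a strand in the promoter table. Of 6826 unacetylated starts 6.71% (6.13 to 7.33) carried a peak, and of 14043 unacetylated stops 7.02% (6.604 to 7.46), so the shares overlapped. Where H3K27ac was in the window, 0.556% of starts and 1.07% of stops did. Of the starts more carried H3K27ac than of the stops. Without H3K27ac in the window there were 6826 starts and 14043 stops, and with it 8986 starts and 1769 stops. A start was the nearest end for 34.2% (31.7 to 36.7) of the 1436 peaks with strand. At the acetylated ends it was for 72.5% (56.1 to 85.4) of 40 SIRT1 peaks. Stops thus outnumbered starts among all unacetylated ends, and starts outnumbered stops among all acetylated ends. The contrast between these shares is therefore not particular to ends with a peak. A difference of either share from the make-up of the ends was not tested. Fold did not separate starts from stops, with a median of 2.78 at starts and 2.78 at stops.

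The density of SIRT1 summits around the ends was then followed outwards, counting all SIRT1 peaks and each shared end once. At unacetylated starts it was 34.2 summits per Mb (31.2 to 37.5) within 1 kb and 33.0 (31.9 to 34.1) at 2 to 10 kb. The list as a whole held 32.1 per Mb. At unacetylated stops it was 35.7 (33.6 to 38.0) within 1 kb and 31.5 (30.8 to 32.2) at 2 to 10 kb. The excess lay on the inner side: the last 1 kb of the gene held 39.2 per Mb (36.0 to 42.6), and the first 1 kb beyond the stop 32.4 (29.4 to 35.5). On the side of the gene, 2 to 10 kb from the stop, the density was 31.4 (30.4 to 32.5). In genes shorter than 10 kb this zone runs past the start. The interval for the last 1 kb did not overlap that of this zone. The 1 kb windows were chosen to hold no H3K27ac peak and the 2 to 10 kb zones were not. How much of the excess comes from that choice was not tested. At starts the inner 1 kb held 36.4 (32.0 to 41.3) and the outer 1 kb 32.0 (27.9 to 36.6), which overlap.

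Around ends that did carry H3K27ac the pattern was a trough. Within 1 kb the density was 4.77 (3.81 to 5.89) at acetylated starts, against 23.1 (22.3 to 23.9) at 2 to 10 kb. At acetylated stops it was 9.79 (6.78 to 13.7), against 19.5 (17.9 to 21.3). Unacetylated starts thus held SIRT1 peaks at about the density of the whole list, and acetylated starts held fewer called peaks. Local background was at its lowest for 36.2% of SIRT1 peaks at acetylated ends and 63.7% at unacetylated ends. Promoters of acetylated starts also had the higher GC content, given below. The part of background or GC content in the trough was not tested.

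**Figure D2:**
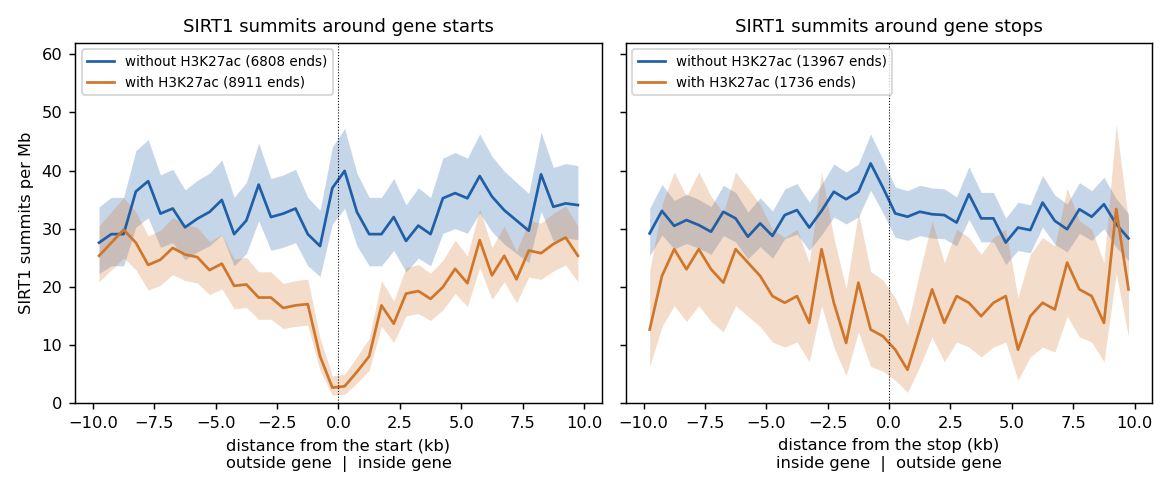
SIRT1 summits per Mb (y axis) in bins of 500 bp by distance in kb from gene starts (left) and gene stops (right), for ends without H3K27ac in the 1 kb window (blue) and ends with it (orange); bands are 95% Poisson intervals. At unacetylated starts the line stays near its surroundings, with 34.2 per Mb within 1 kb, and at acetylated starts it drops to 4.77.

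The share of ends with a peak also differed with the distance to acetylated chromatin beyond the window. With the nearest H3K27ac peak 1 to 2 kb from the end, 4.38% (3.30 to 5.69) of unacetylated ends carried a SIRT1 peak. The share was 5.05% (4.28 to 5.93) at 2 to 5 kb, 6.28% (5.48 to 7.15) at 5 to 10 kb, 6.82% (6.34 to 7.34) at 10 to 50 kb and 6.91% (6.30 to 7.56) at 50 to 200 kb. It was 9.02% (8.02 to 10.1) where no H3K27ac peak lay within 200 kb, and the intervals of the first and last class did not overlap. A peak within 1 kb of more than 1 end, as in a short gene, counted at each. The intervals treat ends as separate and do not allow for that. Starts and stops each had their highest share in the last class, 9.40% of 1096 starts and 8.65% of 1133 stops.

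**Figure D3:**
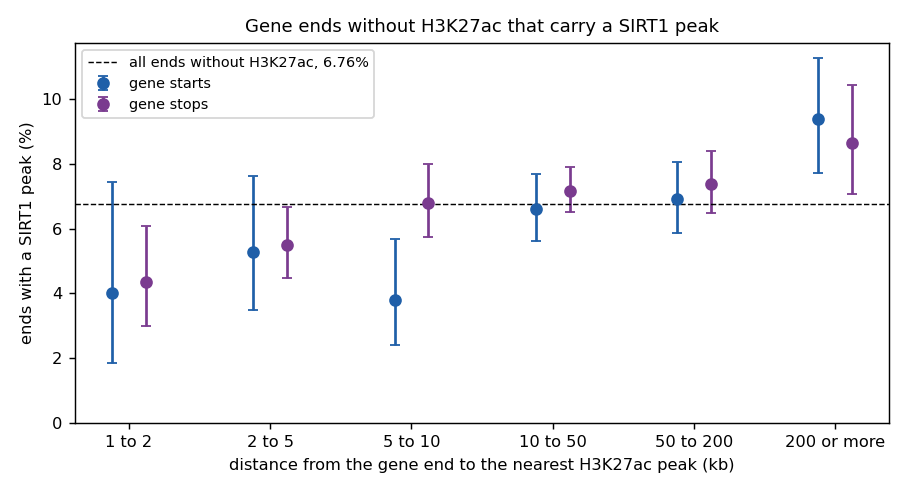
Share of unacetylated gene ends with a SIRT1 peak (y axis, percent) by distance in kb from the end to the nearest H3K27ac peak (x axis), for gene starts and gene stops; points are shares and bars 95% exact binomial intervals. The dashed line marks the 6.76% of all unacetylated ends, and both kinds of end are highest at 200 kb or more.

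The 1813 peaks themselves lay a median of 30708 bp from the nearest H3K27ac peak, with quartiles of 10003 and 93902 bp. Distal SIRT1 peaks lay a median of 109797 bp away. An H3K27ac peak within 10 kb was present for 24.99% (23.01 to 27.05) of the gene end peaks and 10.9% (10.7 to 11.1) of the distal ones, and the closest stood 2 bp away. Unacetylated ends as a whole, with or without a SIRT1 peak, also lay near the mark. Their nearest H3K27ac peak was 1 to 2 kb away at 1211 ends, 2 to 5 kb at 2829 and 5 to 10 kb at 3360. It was 10 to 50 kb away at 9979, 50 to 200 kb at 6413 and further at 2981. The contrast with distal peaks is thus not particular to ends with a peak. By gene, 32.7% of the peaks (30.6 to 34.9) had a nearest gene whose other end carried H3K27ac, and 35.8% (35.3 to 36.4) of all unacetylated ends did. The share was 50.3% (47.0 to 53.5) for peaks at stops and 54.0% (53.2 to 54.8) for all unacetylated stops. Seen per end, 6.503% (5.96 to 7.08) of unacetylated stops with an acetylated other end carried a SIRT1 peak. Of stops in genes unacetylated at both ends 7.63% (6.99 to 8.30) did, and these intervals overlap. Among unacetylated starts, 3.30% (1.71 to 5.69) of 364 with an acetylated other end carried one. Where both ends were unacetylated it was 6.90% (6.30 to 7.55) of 6462 starts, and these intervals did not overlap. Of the genes with such a peak, 62.2% (59.9 to 64.4) were unacetylated at both ends, against 47.2% (46.5 to 48.0) of the 18265 genes with an unacetylated end. A gene with both ends unacetylated has more places for a peak. Median gene length was 24039 bp for genes with a peak and 26052 bp for those 18265. Examples at stops of genes acetylated at the other end were MKI67, a proliferation marker, at a fold of 2.94 on 3 fragments, and MCM2, a replicative helicase subunit gene, at 2.20 on 2. RPS23, a ribosomal protein gene, had 2.94 on 3 fragments.

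Base composition of the promoter went with the share of starts that carried a peak. Among unacetylated starts, 7.15% (5.45 to 9.19) carried one where promoter GC content was under 40%, 7.68% (6.33 to 9.21) at 40 to 50%, and 8.74% (7.41 to 10.2) at 50 to 60%. The share was 6.19% (5.11 to 7.42) at 60 to 70% and 3.57% (2.62 to 4.75) at 70% or more. SIRT1 summits within 1 kb of these starts numbered 44.6 per Mb (37.6 to 52.5) at 50 to 60% GC and 17.9 (13.0 to 23.9) at 70% or more. At 2 to 10 kb from the same starts the density was 32.7 (30.6 to 35.0) at 50 to 60% GC and 33.1 (30.6 to 35.7) at 70% or more, so the difference was local to the start. Restricted to starts with no H3K27ac peak within 10 kb, the share was still 3.83% (2.72 to 5.21) at 70% GC or more, and 9.65% (8.09 to 11.4) at 50 to 60%. The part of GC content in the difference was not tested.

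**Figure D4:**
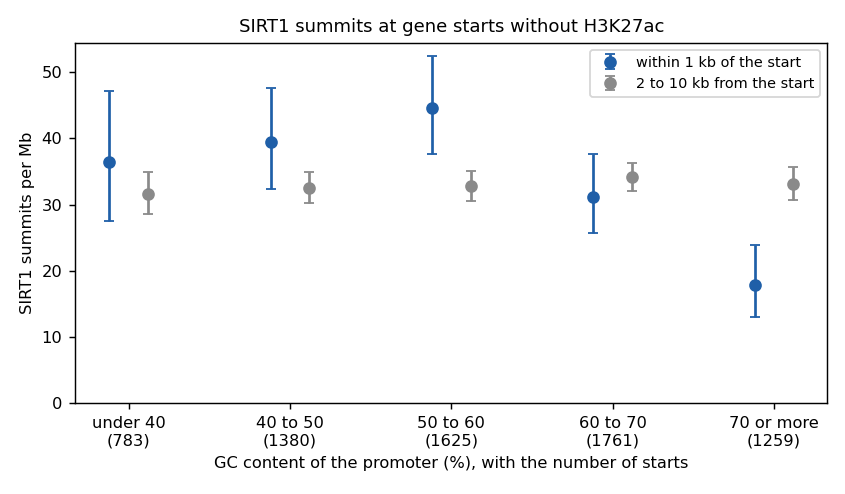
SIRT1 summits per Mb (y axis) at gene starts without H3K27ac, by GC content of the promoter in percent (x axis, with the number of starts), within 1 kb of the start and at 2 to 10 kb; bars are 95% Poisson intervals. Near the start the density is 17.9 per Mb at 70% GC or more, while the flank is 33.1.

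The promoters of the 458 unacetylated starts with a peak had a median GC content of 54.7% (53.3 to 56.0), against 58.0% (57.3 to 58.3) at 6350 unacetylated starts without one and 65.3% at 8911 acetylated starts. The CpG observed over expected ratio had a median of 0.361 (0.317 to 0.395) at starts with a peak, 0.447 at unacetylated starts without one and 0.852 at acetylated starts. Of the 7 motifs searched on both strands, the GC box GGGCGG, the site of SP1-type factors, was in 31.2% (27.003 to 35.7) of promoters with a peak, 42.9% (41.7 to 44.1) of unacetylated promoters without one and 58.5% of all 15812 promoters. The cAMP response element TGACGTCA was in 2 promoters with a peak, or 0.437% (0.0529 to 1.57), against 1.496% (1.21 to 1.83) without one and 2.59% of all. The intervals of the GC box did not overlap between unacetylated promoters with and without a peak, and those of the other 6 motifs did. The TATA box TATAAA was in 17.2% (13.9 to 21.0) with a peak and 15.0% (14.1 to 15.9) without one, and in 9.64% of all. The CCAAT box CCAAT was in 36.2% with a peak and 36.5% without one, and in 36.3% of all. The E-box CACGTG was in 6.33% with a peak and 6.47% without one, and in 8.87% of all. The AP-1 motif TGANTCA was in 6.99% with a peak and 7.57% without one, and in 5.76% of all. The PU.1 motif GAGGAAGT was in 2.62% with a peak and 2.27% without one, and in 2.52% of all. Matches of different motifs may lie over each other in a promoter, and the GC box share was given beside the lower GC content of these promoters.

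Gene lists were set beside the 9.08% of all protein-coding genes with a peak, and beside the 6.76% of unacetylated ends, since a silent gene has more unacetylated ends to carry one. No list was tested, and the lists and the neuron pattern were known from earlier results on these data. Of 20 neuron marker genes 8 had a peak, at 9 of their 37 unacetylated ends. NEFL, the light neurofilament gene, had a fold of 3.10 on 4 fragments, 145 bp inside an end. NEFM, the medium neurofilament gene, had a peak at each end, with folds of 2.41 and 2.11. STMN2, a regulator of microtubules, and RBFOX3, a neuronal splicing factor, had 2.94 on 3 fragments each. GAD1, which makes GABA, had 2.78. SLC17A6 at its start, and MAP2 and SYT1 at their stops, had 2.20 on 2 fragments. None of these peaks had a −log10 q above 0.0558, and the list median of 2.41 was below the 2.78 of all the gene end peaks.

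Clustered protocadherins, the cell-surface codes of neurons on chromosome 5, had a peak at 21 of 53 genes but 11 distinct peaks. Of their 79 unacetylated ends 25 carried one. All 15 genes of the alpha cluster end at the same stop, and 1 peak with a fold of 2.20 on 2 fragments, 651 bp beyond it, counted for each of them. Among the remaining peaks, PCDHB16 is given above, PCDHB4 had a fold of 3.67 on 4 fragments, and PCDHB12 and PCDHA4 had 2.94 on 3 each.

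Placental hormone genes had a peak at 6 of 20, CSH2 among them, with PSG7, a pregnancy glycoprotein gene, at a fold of 2.94 and CSHL1 at 2.20. Erythroid markers had 5 of 20. HBG1, a fetal globin gene, had a fold of 3.67 on 4 fragments 268 bp inside an end, RHAG, a Rhesus complex protein of red cells, had 3.48 on 4, and HBG2 and HBB had 2.94 on 3. Hepatocyte markers also had 5 of 20, with TAT, a tyrosine-degrading enzyme, at 2.94 and ALB, serum albumin, at 2.77 upstream of its start. T and NK cell markers had 3 of 20, with ZAP70, the T cell receptor kinase, at 3.67 on 4 fragments 324 bp inside its start, PRF1 (perforin) at 2.20 and CD247 at 2.11. Epithelial markers had 2 of 20, with KRT5, a basal keratin, at 2.94 and ELF3 at 2.89. Muscle genes had 2 of 20, DES at 2.94 and ACTC1 at 2.78. B cell markers had 1 of 20, TNFRSF13C at 2.20. The share over all genes was 9.08%, and over all unacetylated ends 6.76%. Per unacetylated end, a peak stood at 17.5% of 40 in the placental list, 13.9% of 36 in the erythroid and 13.5% of 37 in the hepatocyte list. It was 9.68% of 31 epithelial, 9.09% of 33 T and NK, 5.41% of 37 muscle and 3.03% of 33 B cell ends. These shares rest on few ends and were not tested. The globin, PSG and CSH genes have close copies, so reads there may be shared between them.

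Macrophage identity genes had a peak at 2 of 20, and at 12.5% of their 16 unacetylated ends, beside 9.08% of all genes and 6.76% of all unacetylated ends. These were CD36, a scavenger receptor, and LGALS3, a galectin, both with a fold of 2.20 on 2 fragments. CD36 had its peak 310 bp inside its start, and no H3K27ac peak reached either of its ends. NF-kB and inflammatory genes had 0 of 20, with 10 unacetylated ends. NADPH oxidases had 0 of 15, with 21 unacetylated ends. With so few unacetylated ends, these zeros cannot be told from the share of all ends. Oxidative phosphorylation genes had 2 of 20, NRF1, a regulator of mitochondrial genes, at 2.94 and ATP5F1B, an ATP synthase subunit, at 2.80. The cytosolic ribosomal protein genes had 2 of 20, RPS23 as above and RPL10 at 2.20, and the cell cycle genes 2 of 20. Sirtuin and NAD genes had 1 of 20, NMNAT3. Per unacetylated end, a peak stood at 11.1% of 18 oxidative phosphorylation, 16.7% of 12 ribosomal, 9.09% of 22 cell cycle and 8.70% of 23 sirtuin and NAD ends.

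The share of unacetylated ends with a peak was 17.6% in type I interferons and between 4.13% and 8.16% in the other 8 families described next, beside the 6.76% of all. Olfactory receptors, the odorant sensors of the nose, had 51 of 392 genes with a peak, and 8% of their 775 unacetylated ends. OR10H2 and OR10G9 had a fold of 3.67 on 4 fragments. Zinc finger ZNF genes had 46 of 509, or 9.04%, with ZNF471 and ZNF57 at 3.67. Solute carriers had 38 of 347, with SLC18A3, the vesicular acetylcholine transporter, and SLC25A21, a mitochondrial carrier, at 3.67. Potassium channels had 13 of 95, with KCNH7 at 3.67 and KCNE5 at 2.94. Keratin-associated proteins had 8 of 94, with KRTAP10-7 at 3.67. Receptors named GPR had 6 of 75, with GPR15 at 2.94, and beta defensins had 4 of 39, with DEFB121 at 3.67. Bitter taste receptors had 3 of 25, with TAS2R1 at 3.23 and TAS2R39 at 3.01. Type I interferons, antiviral cytokines with close copies, had 3 of 17, IFNA14 and IFNA16 at 2.94 and IFNA7 at 2.78. These genes are short, so 1 peak was within 1 kb of both ends in each of the 3.

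In the remaining families few genes had a peak, and no difference from the share of all genes or ends was tested. X-linked cancer-testis families had 4 of 82 genes and 2.48% of their unacetylated ends, GAGE12E and MAGEA9 at 2.94 among them. That is near the 3.17% (2.28 to 4.28) of all unacetylated ends on chromosome X. HOX genes had 2 of 39 and 3.08% of 65 unacetylated ends, with HOXD12 at 2.94 and HOXC8 at 2.20. Mitochondrial ribosomal protein genes, of which 76 were acetylated at an end, had 2 of 77 and 3.23% of 62 unacetylated ends, with MRPS2 at 3.19 and MRPL23 at 2.20. Replication-dependent histone genes, of which 59 were acetylated at an end, had 0 of 69, with 22 unacetylated ends. The PRAME family had 2 of 24 and 4.26% of 47 unacetylated ends, at PRAMEF26 and PRAMEF1, the second with a fold of 2.94.

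**Figure D5:**
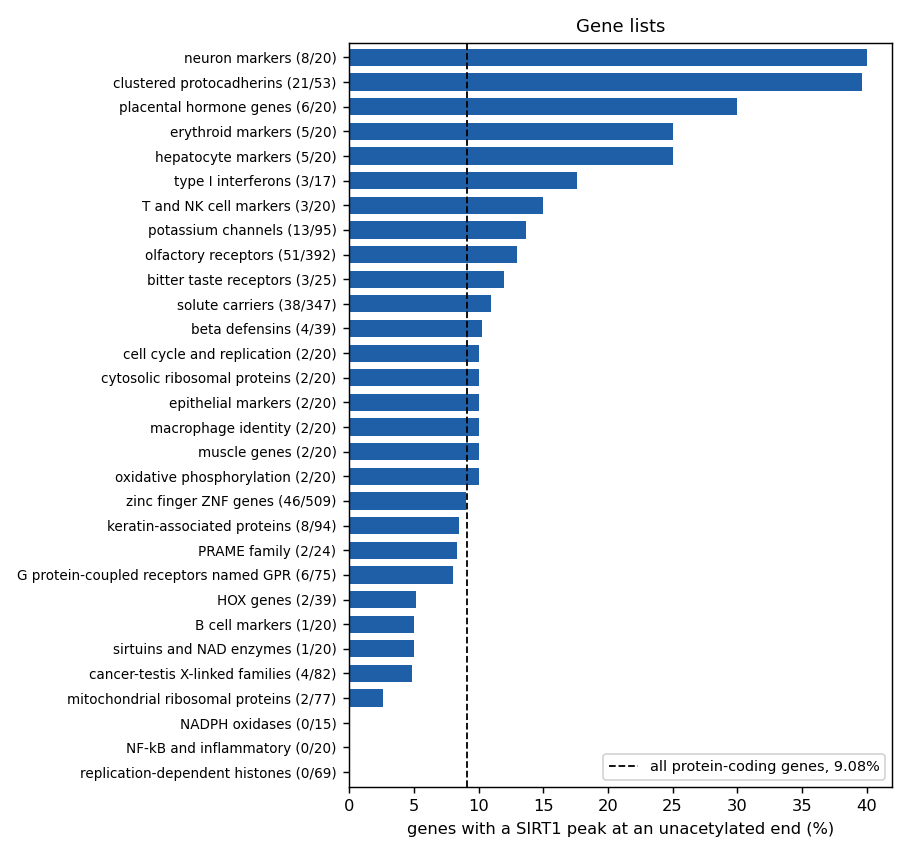
Percent of genes in each of 30 lists that had a SIRT1 peak at an unacetylated end (bars, x axis), with the number of genes with a peak over the number measured beside each name; the dashed line is the 9.08% of all protein-coding genes. Neuron markers stand at 8 of 20, clustered protocadherins at 21 of 53 with 15 genes sharing 1 peak, and histone, NF-kB and NADPH oxidase lists at 0.

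Chromosome X differed from the autosomes. Of its 1293 unacetylated ends 3.17% (2.28 to 4.28) carried a peak, against 4.59% to 8.91% on the autosomes. All SIRT1 peaks were sparser there too, at 9.71 per Mb against 25.4 to 38.5 per Mb on the autosomes. For 31 of the 1813 peaks, or 1.71% (1.16 to 2.42), the local background recovered from the list was over 2 times its lowest value, 0.362 fragments. In the distal peaks the share was 2.23% (2.14 to 2.33). Among the 6 peaks on chromosome 1 between 39 and 44 Mb it was 5. There SCMH1, a Polycomb gene, had a fold of 2.76 on 6 fragments, and the guanylin genes GUCA2A and GUCA2B had 2.80 on 7 and 2.77 on 6. Peaks there held more fragments at an ordinary fold. The highest background, 3.18 fragments, was at TAF11L3, whose peak held 8 fragments at a fold of 2.15. Another SIRT1 peak stood within 1 kb of 7.17% (6.03 to 8.46) of the gene end peaks and 6.83% (6.67 to 6.99) of the distal ones. Hairpins of 2 microRNAs lay under these peaks, MIR3198-2 at the end of CBX5 with a fold of 3.67 and MIR6792 at the end of CAMSAP3 with 2.94.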

How the data were processed

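ChIP-seq peak lists of 1 SIRT1 and 1 H3K27ac library of PMA-treated THP1 cells were used. The submitters' processing notes name MACS2, deepTools and hg38, and the deposited peak names name duplicate marking. For versions, aligner and peak-calling control, the sources used here give nothing. The fold, a ratio to local background at the summit, was deposited by the authors. The −log10 p and −log10 q were likewise deposited by the authors. The score column deposited by the authors repeats the −log10 p of SIRT1 peaks multiplied by 10, and was not used. The SIRT1 list was filtered at a −log10 p of 2.00, with −log10 q down to 0, and the H3K27ac list at a −log10 q of 1.3.

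Fragments at the summit were recovered by solving fold and p together, with 1 added to fragments and to background in the fold and a Poisson upper tail for p. This had 1 whole-number solution for 99.998% of SIRT1 peaks, and returned 100% of 2000 simulated ones. The total reads of the libraries are unknown here. Gene records, strands and promoters came from RefSeq tables of GRCh38.p14, and positions were taken as 1-based. Without that shift the rule gives 1812 peaks. The promoter's start was the end of the gene record for 83.8% of genes. Gaps to H3K27ac peaks equalled those of bedtools 2.31.1 in 100% of 3000 peaks.

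The peaks and the 30 gene lists were chosen with earlier results of these data known. Named genes were the 10 highest by fold, up to 2 per list, the 5 with most peaks, those past the q, those at the 1 kb border, and SIRT1. SLC17A6, DEFB118, the genes of the printed promoters, and further members of the lists, the microRNAs and the chromosome 1 genes were added after their values were seen. Tables were computed with pandas 2.3.3 and scipy 1.17.1 under Python 3.11.15 (numpy 2.4.6), and plots drawn with matplotlib 3.10.9.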

Additional observations from a re-analysis of the deposited data

Results flagged for a closer look

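A signal in data that no comparison used was found off chromosomes 1 to 22 and X, where the SIRT1 list held 1580 peaks.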

How the results depend on the processing

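The number of peaks, genes, median fold, share on 4 or more fragments, share at starts, share with an acetylated other end and median gap kept within their intervals, or within 1.5 times for counts, under 3 settings. These asked for no H3K27ac peak within 1 kb, counted only H3K27ac peaks with a fold of at least 4, or left out backgrounds over 2 times the lowest. A window of 500 bp gave 933 peaks, 942 genes and 30.3% with an acetylated other end. A window of 2500 bp gave 4409 peaks, 4209 genes, 37.8% at starts and a median gap of 26452 bp. SIRT1 peaks with a fold of at least 4 gave 24 peaks, 27 genes, a median fold of 4.29, 100% on 4 or more fragments, 47.1% at starts, 16.7% with an acetylated other end and a gap of 27190 bp. SIRT1 peaks on at least 4 fragments gave 295 peaks, 307 genes, a median fold of 3.59, 100% on 4 or more fragments and 29.8% with an acetylated other end. A −log10 q of at least 1.3 left 2 peaks at 2 genes, with a median fold of 5.51 and 100% on 4 or more fragments. Only the PRAMEF26 peak had strand, so the 0% at starts (0 to 97.5) rests on it alone. With an acetylated other end there were 0% (0 to 84.2), and the gap was 228632 bp (21967 to 435297). The settings themselves fix the changes in counts, and the filters on fold, fragments and q fix the higher median fold and the 100% on 4 or more fragments, so these say nothing about dependence on processing. For the share at starts, the share with an acetylated other end and the gap, the main values lay within the intervals of these filters. That also held for the 500 bp window. Under the 2500 bp window the main values lay outside the intervals, and the cause was not tested. No paired analysis was possible because each antibody had 1 library. With 83.7% of the peaks on 2 or 3 fragments, fold took few values, and differences in strength between classes of peak were not tested.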
